A study of Mus musculus with 4 samples.

Results

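Exonic circular RNAs are closed loops of exon sequence, and the 1856 described here were those that the deposited circRNA table annotates as exonic, out of 2253 circRNAs in all. They came from 1256 host genes. The rest of the table comprised 153 single-exon circles, which the table keeps as a class of their own, 137 that run over exons and introns, 39 intronic, 36 intergenic and 32 antisense circles. The annotation alone chose the exonic circles, and no measured value entered the choice.

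A circRNA forms by back-splicing, in which the splice donor at the end of an exon is joined to the acceptor of an exon upstream, so that the product has no cap and no poly(A) tail and resists exonucleases. Pairing of inverted repeats in the flanking introns and some RNA-binding proteins favour the reaction, while the helicase Dhx9 and the RNA editing enzyme Adar unwind or disrupt such pairs. Circles and the linear mRNA are made from the same precursor, circles are generally abundant in brain, and they can accumulate in cells that divide slowly, since cell division dilutes stable RNA. In sequencing data a circle is recognised by reads across its back-splice junction, called junction reads below.

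The series used N2a, a mouse neuroblastoma line with neuron-like features that keeps dividing in culture, and asked what manganese, a metal that cells need but that harms neurons in excess, does to its RNA. One group was N2a given 300 µM manganese for 48 h in MEM, a standard culture medium, and the other was N2a without manganese. RNA was extracted with Trizol, and each group had 1 library of total RNA, from which ribosomal RNA was removed, and 1 of small RNA. The labels give the strain as C57BL/6, call the cells neural, and carry the same treatment text on every library, so the titles decided which library was treated. Both groups are a single cell line, and 1 library per condition leaves no replicate error: every ratio below compares these libraries and not the conditions. Brackets hold 95% intervals that cover counting error only, because PCR copies of a molecule are not independent and the sources name no molecular identifiers.

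The Mn-treated library held 9433 junction reads and 14606961 reads assigned to mRNA genes, and the untreated library held 11665 and 13972437. Of 22 neuroblastoma markers 18 were measured, which here means 20 or more mRNA reads in sum, and Nefl and Nefm were at 0 in both libraries. Of the 18 measured, 4 were at least 1.5-fold higher in the Mn-treated library and 1 lower, near the 21.6% and 5.97% of all measured mRNA genes. The log2 ratios of mRNA reads of the 18 lay between -0.88 (Isl1) and 1.08 (Gap43) with a median of 0.05. Neuronal tubulin Tubb3 had 33715 reads in the Mn-treated and 33400 in the untreated library. Of 23 markers of immune, glial, fibroblast, endothelial, epithelial and liver cells 5 were measured, 7 were at 0 in both libraries (Alb, Aqp4, Cd3e, Epcam, Lum, Ptprc and Sox10), and the whole list summed to 504 reads in the Mn-treated and 341 in the untreated library.

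The genome of this build was not used here, so the circles themselves are given by position. The sequences that could be read are those of known microRNAs whose hairpins lie inside the span of an exonic circle, which shows where circle and small RNA come from 1 stretch of a host. Of 1856 exonic circles 18 spanned such a hairpin, 16 of them on the host's strand, in 14 hosts. The mature arms with at least 100 reads in each small RNA library, a limit set after their values were seen, are given 5′ to 3′ from RefSeq (GRCm38.p6) with the seed, bases 2 to 8, in capitals.
mmu-let-7f-5p: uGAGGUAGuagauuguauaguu
mmu-miR-98-5p: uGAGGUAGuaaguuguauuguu
mmu-miR-335-5p: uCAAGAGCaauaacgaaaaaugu
mmu-miR-335-3p: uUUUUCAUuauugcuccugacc
mmu-miR-744-5p: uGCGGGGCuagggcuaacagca
mmu-miR-1843a-5p: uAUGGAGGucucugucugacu
mmu-miR-128-3p: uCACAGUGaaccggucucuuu

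The first pair shares 1 seed and both hairpins, Mirlet7f-2 and Mir98, lie inside 1 circle of Huwe1, a large ubiquitin ligase, at chrX:151910101-151917040. That circle has a spliced length of 1091 nt over a genomic span of 6940 bases, and it had 3 junction reads in the Mn-treated and 0 in the untreated library. In the small RNA libraries let-7f-5p had 16901 reads with manganese and 13389 without, of 9943263 and 10479102 reads in the table, and it is also made from another locus. miR-98-5p had 529 with manganese and 393 without. Mest, an imprinted gene, had a circle around Mir335 that had 5 junction reads with manganese and 0 without. miR-335-3p had 39222 reads with manganese and 52196 without, and miR-335-5p had 5105 with and 4187 without. Map2k4, a stress-activated kinase, had one around Mir744 that also had 5 junction reads with manganese and 0 without, and miR-744-5p had 23851 reads with and 17860 without. The circle of R3hdm1 around Mir128-1 had 2 junction reads with manganese and 0 without. miR-128-3p, which has another locus as well, had 38720 reads with manganese and 34865 without. A pair of circles of Dcaf5 spanned Mir1843a. The shorter had 2 junction reads with manganese and 3 without, the longer 4 with and 0 without, and miR-1843a-5p had 2320 reads with and 1805 without. The arms given had many reads because of the limit set on them. Other arms inside these circles had few or no reads, such as miR-7090-5p with 2 with manganese and 3 without. The most read of the 16 circles had 10 junction reads in sum, where exonic circles had a median of 5. Whether a hairpin lies in an exon of its circle or in an intron that is spliced out was not tested.

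Exonic circles took 7487 junction reads in the Mn-treated library, 79.4% [78.5 to 80.2] of all, and 9399 in the untreated library, 80.6% [79.8 to 81.3]. These intervals overlap. Set against the mRNA reads of the same library, exonic circles had 513 junction reads per 1000000 mRNA reads with manganese and 673 without, a ratio of 0.762 [0.739 to 0.786]. Over all circRNAs that ratio was 0.774. In bulk RNA, fewer cells with circles, fewer circles per cell and more mRNA per cell cannot be told apart. The ratios of single circles below are scaled to the total junction reads of each library, so this difference in amount is not part of them.

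Most exonic circles were rare. A circle had a median of 5 junction reads over both libraries, with quartiles of 3 and 9 and a maximum of 354. Its spliced length had a median of 625.5 nt and ran between 67 and 13393 nt, over a median genomic span of 9406.5 bases. Of the 1856 circles, 824 (44.4%) had reads in both libraries, 425 (22.9%) in the Mn-treated library alone and 607 (32.7%) in the untreated library alone. The circles read in both held 12613 of the exonic reads and had a median of 9. Those seen in the Mn-treated library alone had a median of 3 and at most 16 reads, and those in the untreated library alone a median of 4 and at most 17.

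**Figure D1:**
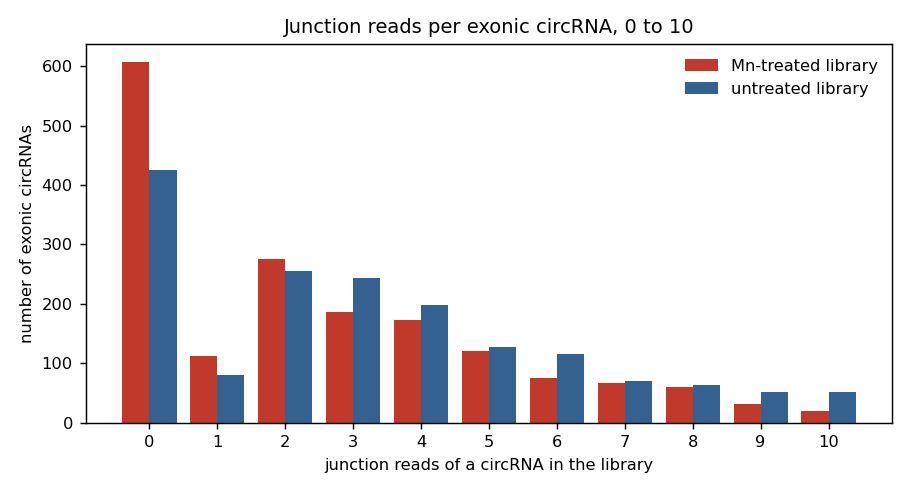
Number of exonic circRNAs (vertical axis) with 0 to 10 junction reads (horizontal axis) in the Mn-treated and in the untreated library. In each library far more circles stand at 0 than at 1, and more at 2 than at 1.

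The plot of circles by junction reads shows how the table treats low values. In the Mn-treated library 607 circles had 0 reads, 112 had 1 and 275 had 2, and in the untreated library 425 had 0, 81 had 1 and 256 had 2. Every circle seen in a single library had at least 2 reads there. Among circles with at least 10 reads in sum, the lower library had 0 reads for 32 and 1 read for 15. The sources used here name neither the caller nor its minimum, and whether a 0 stands for a circle that was not called was not tested. A count of 0 allows a share of up to 0.0318% of the junction reads in the Mn-treated library and 0.0257% in the untreated library.

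The table gives 136 exonic circles (7.33%) a database name and labels the rest as new. Named circles had a median of 7.5 reads, held 14.5% of the exonic reads, and 65.4% of them were read in both libraries. The 1720 circles without a name had a median of 5 reads, and 42.7% of them were read in both. The submitters' processing notes name the build mm9, but of 1838 exonic circles whose host could be placed 1827 (99.4%) lay inside the host's span in GRCm38. Positions are printed as deposited. The middle of a circle lay at a median of 51.1% of the length of its host gene, and a circle covered a median of 11.3% of that span.

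The 12 exonic circles with most reads had 880 reads in the Mn-treated library and 954 in the untreated library, which is 11.8% and 10.2% of the exonic reads. The circle of Nsd2, a methyltransferase of histone H3 lysine 36, led with 154 reads with manganese and 200 without. It lies at chr5:33843112-33846267 on the plus strand and is 789 nt long when spliced. Its log2 ratio, from reads plus 0.5 over the library's junction reads, was -0.07 [-0.38 to 0.24], an interval that holds 0. Next came Unc79, a subunit of the sodium leak channel complex of neurons, whose circle at chr12:102991350-103021876 had 103 reads with manganese and 114 without, at 0.16 [-0.24 to 0.56]. Mettl9, a histidine methyltransferase, followed, at 90 reads with manganese and 87 without and a log2 ratio of 0.36. Asb3, a SOCS box protein that brings substrates to a ubiquitin ligase, had 62 with manganese and 84 without, at -0.13.

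Among these 12 circles, Elf2 and Ankib1 had an interval wholly above 0 and none had one wholly below. The circle of Elf2, an ETS family transcription factor, lies at chr3:51308050-51326035 on the minus strand and is 484 nt long. With 78 reads in the Mn-treated and 45 in the untreated library it was at 1.09 [0.55 to 1.66], while Elf2 mRNA had 1133 reads with manganese and 903 without, at 0.26. In the authors' deposited table its false discovery rate is 0.0115. Ankib1, a ubiquitin ligase of the RING-between-RING type, had 77 reads with manganese and 53 without, at 0.84 [0.32 to 1.38]. Alg12, a mannosyltransferase that builds the glycan precursor in the endoplasmic reticulum, had 45 with manganese and 81 without, at -0.53 [-1.10 to 0.0015], beside an mRNA at -0.44. The other 5 lay between -0.31 (Dtnb, dystrobrevin beta, 33 reads with manganese and 51 without) and 0.45 (Ep400, an ATPase of a chromatin remodelling complex, 62 with and 56 without).

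**Figure D2:**
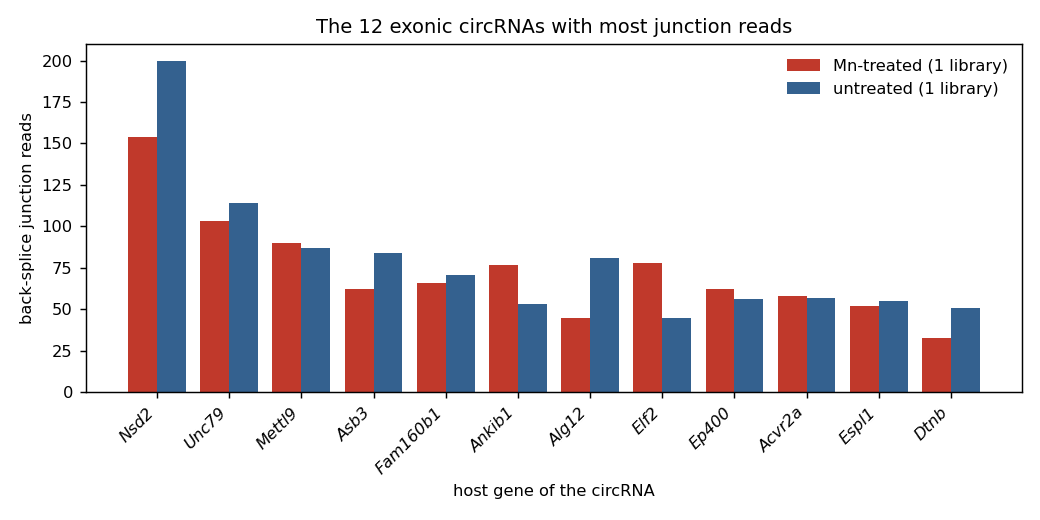
Junction reads (vertical axis) of the 12 most read exonic circRNAs, by host gene, in the Mn-treated and the untreated library (1 library each, no error bars). Nsd2 is highest in both, with 154 reads with manganese and 200 without, and Elf2 and Ankib1 are higher in the Mn-treated library.

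Which circles differed between the libraries was asked of the 430 exonic circles with at least 10 junction reads in sum. At the limit, 57 exonic circles had 10 reads and 78 had 9. The median log2 ratio of the 430 was 0.07, against 0.05 over the 534 circRNAs of all types that reached 10 reads. Past 2-fold, 78 of the 430 (18.1%) were higher in the Mn-treated library and 98 (22.8%) were lower. Over all 534 circRNAs these shares were 18.2% and 22.7%, so exonic circles, which make up most of that table, had the shares of the whole. Of all 2-fold differences 44.3% were therefore on the higher side. With both libraries scaled to mRNA reads instead, 54 were higher and 129 lower, which puts 29.5% on the higher side and the median at -0.31. Intervals lay wholly above 0 for 48 of the 430 circles and wholly below 0 for 57, beside 58 and 70 of the 534 circRNAs of all types. The exonic circles had much the same shares as the whole here too.

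**Figure D3:**
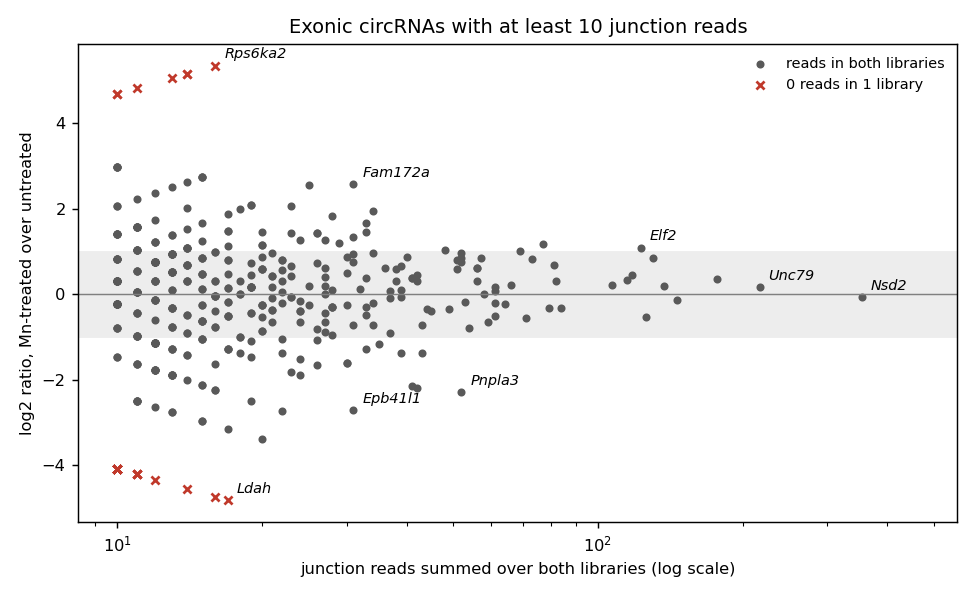
Log2 ratio of the Mn-treated over the untreated library (vertical axis) against junction reads in sum on a log scale (horizontal axis) for 430 exonic circRNAs, with the grey band marking ratios under 2-fold and crosses the circles with 0 reads in 1 library, whose plotted ratio depends on the added 0.5 reads. Ratios spread most at few reads, and the most read circles, such as Nsd2 and Unc79, lie near 0.

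The plot of ratios against reads shows that the spread was widest where reads were few. With at least 20 reads in sum, 21 of 154 exonic circles were 2-fold higher and 19 lower. The authors' deposited table marks 318 of the 1856 exonic circles as significant. Of the 1856, 18 have a false discovery rate under 0.05, of which 9 are higher and 9 lower. The counts in this paragraph were not made over circRNAs of all types, so they do not set exonic circles apart.

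The highest ratios belonged to circles with no read in the untreated library. For these the fold is a bound against a floor of 3 reads in that library, with the Mn-treated count taken as exact. The counting interval, which covers both counts, begins lower, at 4.77-fold for Rps6ka2, 4.10-fold for Phtf2 and Mbtps2 and 3.77-fold for Phip. Rps6ka2, a ribosomal S6 kinase downstream of MAP kinase, had 16 junction reads with manganese and 0 without at chr17:7227913-7271656, at least 6.60-fold higher, while its mRNA had 6252 with and 4987 without. Mbtps2, the site-2 protease that releases membrane-bound transcription factors, and Phtf2 each had 14 with manganese and 0 without, at least 5.77-fold higher. Phip, a bromodomain protein, had 13 with manganese and 0 without, at least 5.36-fold higher, beside an mRNA of 757 reads with and 343 without that was itself at a log2 ratio of 1.08. Tmtc2, an enzyme of the endoplasmic reticulum that mannosylates cadherins, had 11 with manganese and 0 without. Chn1, a GTPase-activating protein for Rac in neurons, and Hmgxb4 had 10 with manganese and 0 without.

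Among circles with reads in both libraries, the intervals farthest above 0 were those of Fam172a and Akap7, followed by Nbea, Dtwd2 and Golph3 with equal counts. The circle of Fam172a at chr13:77951985-78006472 had 26 reads with manganese and 5 without, at 2.57 [1.28 to 4.42], and the host mRNA had 74 reads with and 36 without, at 0.97. Akap7, which anchors protein kinase A, had 21 with manganese and 4 without, at 2.56 [1.13 to 4.70]. Nbea, neurobeachin of the secretory pathway in neurons, had 13 with manganese and 2 without, at 2.74 [0.86 to 6.20], as did circles of Dtwd2 and Golph3.

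At the other end, Ldah, a lipid droplet hydrolase, had 0 junction reads in the Mn-treated and 17 in the untreated library at chr12:8268364-8275890, at least 4.58-fold lower. Its mRNA had 652 reads with manganese and 420 without, a log2 ratio of 0.57, so circle and mRNA pointed opposite ways. Pafah1b2, a catalytic subunit of an acetylhydrolase of platelet-activating factor, had 0 with manganese and 16 without, at least 4.31-fold lower. Nmd3, an export adaptor of the large ribosomal subunit, had 0 with manganese and 14 without, at least 3.77-fold lower. Tmem56 had 0 with manganese and 12 without. Ndufa10, a subunit of respiratory complex I, Uvrag, a protein of autophagy, the neuron navigator Nav1, and Jup, junction plakoglobin, each had 0 with manganese and 11 without. A further 17 circles had 0 with manganese and 10 without, at least 2.70-fold lower. These bounds take the untreated count as exact. The near end of the counting interval, which covers both counts, was 3.34-fold lower for Ldah and 1.81-fold lower, under 2-fold, for each of these 17. Their hosts were Mettl15, Fam169a, Rbbp7, Tiprl, Fut8, Cul1, Nup205, Washc4, Tent4a, Slc38a1, Farsa, Pbrm1, Kansl1, Atxn10, Riok2, Lrig2 and Ccnt2, among them the cullin Cul1, the histone chaperone Rbbp7, the chromatin remodelling subunit Pbrm1 and the nuclear pore protein Nup205.

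Reads in both libraries stood behind 3 of the lowest circles. D630045J12Rik had 1 read in the Mn-treated and 19 in the untreated library, at -3.39 [-9.32 to -1.29]. Epb41l1, a protein 4.1 of the neuronal membrane skeleton, had 3 with manganese and 28 without, at -2.72 [-5.28 to -1.22]. Pnpla3, a lipase family protein of lipid droplets, had 7 with manganese and 45 without, at -2.29 [-3.77 to -1.22], and has the lowest false discovery rate of any exonic circle in the authors' deposited table, 0.00649. Its mRNA also had fewer reads, 65 with manganese and 122 without, at -0.97. In all, 7 circles had at least 10 reads in the Mn-treated library and 0 in the untreated one, and 25 the reverse. The cut of 10 reads is not scaled to depth. It is a smaller share of the 11665 junction reads of the untreated library than of the 9433 of the Mn-treated library. Most of the 25 stood at exactly 10 reads, and the same contrast over circRNAs of all types was not counted.

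Several circles from 1 gene were common. Of 1256 hosts 873 gave 1 exonic circle and 383 (30.5%) gave several: 253 gave 2, 81 gave 3, 28 gave 4, 12 gave 5, 4 gave 6, 4 gave 7 and 1 gave 10. The 383 hosts held 983 circles and 62.4% of the exonic reads in the Mn-treated and 60.7% in the untreated library. The most read circle of such a host held a median of 62.5% of the host's junction reads. Only 53 hosts had several circles that each reached 10 reads.

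Circles of 1 host often reused a splice site. In 173 of the 383 hosts at least a pair of circles began at the same acceptor, the 5′ end of the circle, and in 118 a pair ended at the same donor, the 3′ end. Both kinds of sharing occurred in 41 hosts and neither in 133. There were 180 shared 5′ sites with 400 circles, at most 4 on a site, and 128 shared 3′ sites with 277 circles, at most 3 on a site. In Elavl3 and in Elf2 a pair of circles shared the 3′ site and had 5′ sites 3 bases apart. For Elf2 the main circle had 78 reads with manganese and 45 without, and the one that begins 3 bases later had 1 with and 2 without.

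Sfmbt2, a Polycomb-related gene whose mouse locus is imprinted in placenta, gave the most exonic circles, 10, from 5 distinct 5′ sites and 6 distinct 3′ sites. Together they had 44 junction reads in the Mn-treated and 84 in the untreated library, at -0.62 [-1.19 to -0.08], while the mRNA had 894 reads with manganese and 679 without, at 0.33. The circle with most reads, at chr2:10393265-10404678, had 10 with manganese and 33 without, at -1.37 [-2.60 to -0.36]. One at chr2:10437947-10445782 had 14 with manganese and 20 without, and one at chr2:10523945-10568470 had 10 with and 9 without. The remaining 7 had at most 8 reads in a library, and 5 of these had none in the Mn-treated library.

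**Figure D4:**
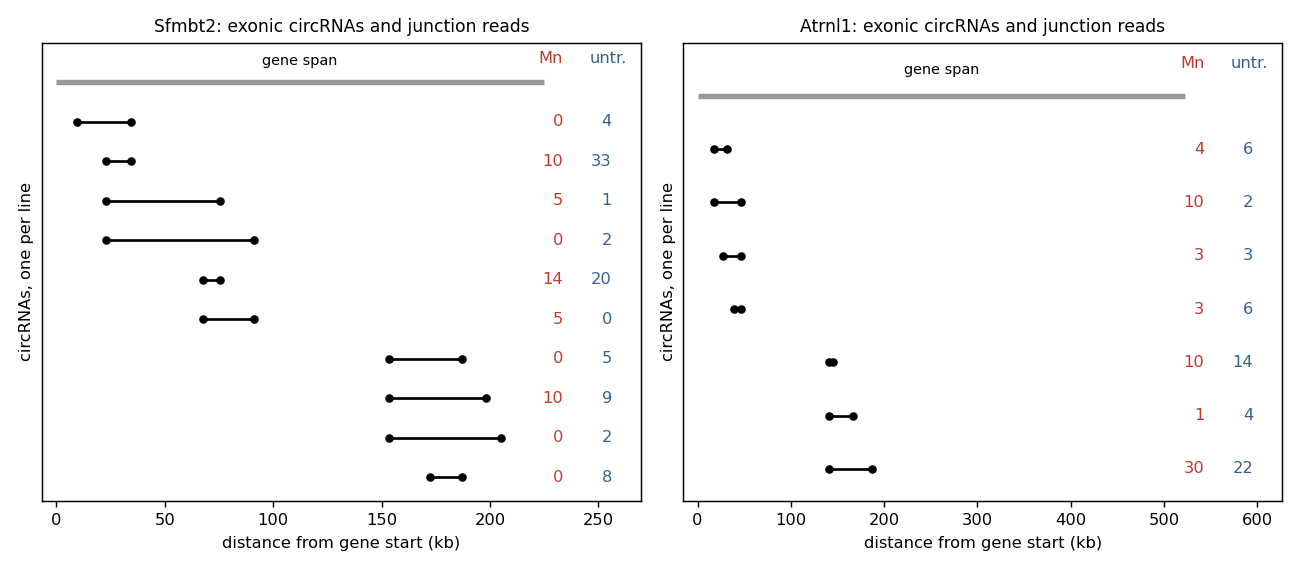
Exonic circRNAs of Sfmbt2 and Atrnl1, each drawn as a line between its back-splice ends against distance from the start of the host gene in kb (horizontal axis), with its junction reads in the Mn-treated library (Mn) and the untreated library (untr.) at the right. Several circles of each host share an end, and those of Sfmbt2 fall into a 5′ and a 3′ set.

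Atrnl1, Nbea and Nbas gave 7 circles each. Atrnl1, attractin-like 1, had 61 reads in the Mn-treated and 57 in the untreated library, at 0.40 [-0.14 to 0.95]. As the map of its circles shows, 3 of them begin at the same 5′ site. The longest, at chr19:57751630-57797503, had 30 reads with manganese and 22 without, at 0.75 [-0.09 to 1.62]. The shortest, at chr19:57751630-57755618, had 10 with manganese and 14 without, at -0.16 [-1.51 to 1.10], and the middle one had 1 with and 4 without. A separate circle, at chr19:57629085-57657238, had 10 with manganese and 2 without, at 2.38 [0.40 to 5.86]. Nbea had 43 with manganese and 32 without, at 0.73 [0.04 to 1.44], and Nbas, a tethering protein between Golgi and endoplasmic reticulum, had 27 with and 24 without, at 0.47.

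Hosts with 6 circles included Rims2, a scaffold of the presynaptic active zone, with 44 reads in each library, at 0.31 [-0.33 to 0.94], while its mRNA had 629 reads with manganese and 316 without, at 0.93. Ckap5, a microtubule polymerase of the spindle, had 25 junction reads with manganese and 7 without over 6 circles, at 2.07 [0.89 to 3.60], although none of the 6 reached 10 reads. Its mRNA had 951 reads with manganese and 524 without, at 0.80. Cnot6l, a deadenylase, had 35 with manganese and 26 without, and the corepressor Rere had 25 with and 36 without. Of the hosts with 5 circles, Elf2 had 86 with manganese and 61 without, at 0.80 [0.31 to 1.30], Ambra1, a regulator of autophagy, 38 with and 45 without, and Tmtc2 31 with and 48 without.

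The ratios of circles from 1 host were also set side by side. In the 53 hosts with several measured circles, the highest and the lowest log2 ratio differed by a median of 1.67. Taking extremes widens this gap, and whether circles of separate hosts differ as much was not tested. They lay on the same side of 0 in 23 hosts and on opposite sides in 30, and in 19 they were less than 1 apart. Their intervals did not overlap in 5 hosts, of which 4 are given here. In Tmtc2 one circle had 11 reads with manganese and 0 without, and another had 6 with and 36 without. In Tent4a, a poly(A) polymerase, one circle had 30 reads with manganese and 21 without, and another from the same 5′ site had 0 with and 10 without. Dtwd2 had one circle of 13 reads with manganese and 2 without, and another that ends at the same 3′ site had 20 with and 39 without. Rasa2, a GTPase-activating protein for Ras, had one circle of 21 reads with manganese and 7 without, and another from the same 5′ site had 12 with and 21 without. These pairs were picked as the extremes of each host and are given as a description. In Tmtc2 and Tent4a the gap rests on a count of 0, which may stand for a circle that was not called. In Ttc3, a ubiquitin ligase whose circles had more reads, one circle had 43 reads with manganese and 30 without, at 0.82, and another from the same 5′ site had 25 with and 46 without, at -0.56, and the intervals overlapped.

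How circular reads stood against the host mRNA was asked next. Of 1256 hosts 1243 had a row in the mRNA table, and 13, such as the non-coding genes Pvt1 and Lncpint with 23 circles in all 13, had none. The mRNA of hosts had a median of 6.68 FPKM in the Mn-treated and 5.24 in the untreated library, against 5.63 FPKM with manganese and 4.80 without over all measured genes, hosts included. The median log2 ratio of host mRNA was 0.34 over 1229 hosts with at least 20 mRNA reads, against 0.18 over all 11872 such genes. The mRNA of 61 hosts (4.96%) was at least 2-fold higher, against 7.26% of all genes, and that of 3 hosts (0.244%) at least 2-fold lower, against 1.70%.

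The level of circles and the level of the host were set side by side as a description. Across 1229 hosts, all read from the same pair of libraries, junction reads and mean host FPKM had a Pearson r of 0.05 and a Spearman rho of 0.05. In the 450 hosts with at least 10 junction and 20 mRNA reads, the median was 1.31 junction reads per 100 host mRNA reads in the Mn-treated library and 2.53 in the untreated library. Per length, junction reads per 1000000 mRNA reads over host FPKM had medians of 0.0818 with manganese and 0.151 without.

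The 8 hosts highest on that per-length scale were Unc79, Lin54, Sh3rf1, Acvr2a, Rasa2, Med12l, Akap7 and Ccdc40. The estimated mRNA counts of Unc79, Lin54, Sh3rf1, Rasa2 and Akap7 were not whole numbers, so their host levels are less certain. Unc79 had 2.68 in the Mn-treated and 4.69 in the untreated library, on 111 junction reads with manganese and 118 without over 4 circles, and 574 mRNA reads with and 355 without. Lin54, a DNA-binding subunit of the DREAM complex that controls cell cycle genes, had 1.93 with manganese and 4.57 without, on 31 junction reads with and 60 without. Acvr2a, an activin receptor, had 58 junction reads with manganese and 67 without beside 279 mRNA reads with and 248 without, and Rasa2 had 2.28 with and 1.84 without on the per-length scale. Sh3rf1, a scaffold of JNK signalling, ranked high through the untreated library alone, at 0.517 with manganese and 4.21 without, on 60 mRNA reads with and 18 without. Med12l had 2.41 with manganese and 1.47 without, and Ccdc40, a protein of motile cilia, 1.11 with and 1.57 without. Akap7 had the highest number per 100 host reads of these, 61.8 with manganese and 88.2 without, on 34 mRNA reads with and 17 without. Its host FPKM ran the other way, 0.67 with manganese and 1.37 without. On the per-length scale Akap7 was therefore higher with manganese, so its direction depends on the host measure. For Nsd2, the most read circle, the per-length value was 0.253 with manganese and 0.375 without, beside an mRNA of 42.28 FPKM with and 38.97 without. The most read circle and the most circular host were different genes.

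Relative to the host, circles had fewer reads in the Mn-treated library at the median. For 419 measured circles with a measured host, the log2 ratio of the circle minus that of the host mRNA had a median of -0.29, against -0.34 over circRNAs of all types. Relative to the host 57 circles (13.6%) were 2-fold higher or more, against 13.5% of 504 circRNAs of all types, and 130 (31.0%) were 2-fold lower or more, against 31.0%. Among these 419 circles, 75 were past 2-fold on the higher side, and for 3 of them the host mRNA was too. On the lower side 97 circles were past 2-fold, and for 0 of them the host mRNA was too. Few such cases could occur by background alone, since the mRNA of only 4.96% of measured hosts was past 2-fold upward and of 0.244% downward. These counts therefore do not show that circles and hosts change apart. The hosts of both sets had similar mRNA ratios, with medians of 0.42 for the higher and 0.33 for the lower circles.

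**Figure D5:**
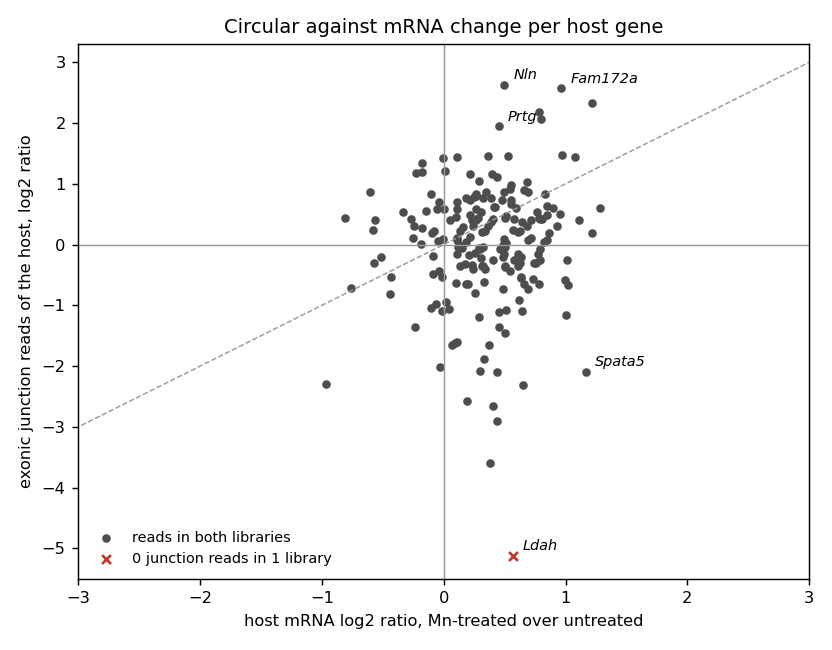
Log2 ratio of summed exonic junction reads (vertical axis) against log2 ratio of host mRNA reads (horizontal axis), Mn-treated over untreated, for 201 host genes with at least 20 junction and 100 mRNA reads. The dashed line marks equal ratios, and the cross marks a host with 0 junction reads in the Mn-treated library. The hosts spread widely up and down and narrowly from side to side, with no visible trend.

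Summed over the circles of a host, 202 hosts had at least 20 junction and 100 mRNA reads. Their circular and mRNA log2 ratios had a Pearson r of 0.07 and a Spearman rho of 0.08. The plot of circular against mRNA change shows 201 of them and leaves out Ash1l, a histone methyltransferase, whose mRNA is listed at 0 in the Mn-treated library and at 200 reads in the untreated library, while its circles had 14 with manganese and 23 without. A circular change at least 2-fold below that of the mRNA was found for 42 of the 202 hosts. One at least 2-fold above it was found for 16, with Ash1l among the 16. Among single circRNAs of all types, 31.0% were 2-fold lower relative to the host and 13.5% higher. Hosts of all types were not counted, so the 42 and 16 do not set exonic hosts apart.

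The hosts farthest below their mRNA were Ldah, with 0 junction reads in the Mn-treated and 21 in the untreated library, D630045J12Rik with 1 in the Mn-treated and 22 in the untreated, and Epb41l1 with 3 in the Mn-treated and 32 in the untreated. Spata5, an AAA ATPase of ribosome maturation, had 3 junction reads with manganese and 18 without but 266 mRNA reads with and 113 without, a difference of -3.26. Uvrag had 2 with manganese and 19 without, Arhgap26, a GTPase-activating protein that acts on the actin cytoskeleton, 4 with and 27 without, Tmem56 2 with and 18 without, and the tyrosine phosphatase Ptpn9 6 with and 34 without. In these 8 hosts the mRNA log2 ratio lay above 0 and the circular one below 0. The ranking itself favours such hosts, and the median mRNA log2 ratio over 1229 measured hosts was 0.34. The estimated mRNA counts of Ldah, D630045J12Rik, Epb41l1, Spata5 and Arhgap26 were not whole numbers, so their differences are less certain.

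Farthest above their mRNA, apart from Ash1l, was Nln, the peptidase neurolysin, with 17 junction reads in the Mn-treated and 3 in the untreated library and 507 mRNA reads with manganese and 344 without, a difference of 2.13. Fam172a followed at 1.61 and Abraxas1, a scaffold of a DNA repair complex, at 1.52 on 21 junction reads with manganese and 10 without. Prtg, protogenin of the neural cell surface, had 26 junction reads with manganese and 8 without. Txndc11 had 31 junction reads with manganese and 21 without but 333 mRNA reads with and 484 without, at 1.46. Eps15l1, an adaptor of clathrin-mediated endocytosis, had 50 junction reads with manganese and 27 without but 746 mRNA reads with and 836 without, at 1.41 [0.72 to 2.16] with the mRNA ratio taken as exact. Rtn2, a reticulon, had 18 junction reads with manganese and 8 without, at 1.44. The estimated mRNA counts of Ash1l, Fam172a, Abraxas1, Prtg, Txndc11 and Eps15l1 were not whole numbers, so their differences are less certain.

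Some hosts had circles but no mRNA reads in the table. Nbea had 43 junction reads with manganese and 32 without over 7 circles, Arf3, a GTPase of the Golgi, had 8 with and 20 without, and Atp9a, a phospholipid flippase, had 4 with and 5 without, all with mRNA listed at 0 in both libraries. Pdzd8, at 0 junction reads with manganese and 7 without, and Gm28047, at 0 with and 4 without, were listed at 0 likewise. Estimated counts of host mRNA were fractional for 324 hosts (26.1%), against 13.3% of all genes. Whether the estimate set these hosts to 0 was not tested, and no fold is given for them.

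Genes that act on circRNAs themselves were examined in a pair of lists, against a background in which 21.6% of measured mRNA genes were higher by 1.5-fold or more and 5.97% were lower by as much. Of 36 listed genes of circRNA formation 35 had an mRNA entry, and Qki had none. Of the 34 measured 1 was at least 1.5-fold higher and 0 were lower. Their median log2 ratio was 0.08, against 0.18 over all genes. The gene past 1.5-fold was Rbm20, a splicing factor that drives circles of titin in heart. It had 41 mRNA reads in the Mn-treated and 5 in the untreated library, at 2.85 [1.63 to 4.67]. Its level was near the floor, at 0.34 FPKM with manganese and 0.04 without. Hnrnpa1, a splicing repressor, had 7088 with manganese and 4954 without, at 0.45. At the low end U2af2, the factor that binds the polypyrimidine tract, had 4470 reads with manganese and 6411 without. It was at -0.58, just short of 1.5-fold lower. The SR protein Srsf6 was at -0.47. Dhx9 was at 0.40 and Adar at 0.04.

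Of 26 measured genes of export, decay and m6A reading of circRNAs, 4 were at least 1.5-fold higher and 1 was lower, with a median of 0.25. Tnrc6b, a partner of Argonaute in silencing, had 670 mRNA reads in the Mn-treated and 307 in the untreated library, at 1.06. Rpp38, a subunit of the RNase P and MRP complexes, had 89 with manganese and 49 without, at 0.79, G3bp1, which binds structured RNA in decay, 499 with and 290 without, at 0.72, and Ago2 4674 with and 2934 without, at 0.61. Upf1, the helicase of nonsense-mediated decay, had 2015 with manganese and 3120 without, at -0.69 [-0.78 to -0.61]. Of the helicases for circRNA export, which act by circle length, Ddx39 was at -0.54 and Ddx39b at -0.34. Counts of Tnrc6b, G3bp1, Ago2, Dhx9 and Hnrnpa1 were fractional and are less certain.

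Well-known circRNA genes were present in part. Of 42 hosts known for abundant exonic circles in mouse or human, 20 had at least 1 here, with 52 circles, 283 junction reads in the Mn-treated and 260 in the untreated library. Of 15 measured circles 5 were at least 2-fold higher and 0 lower, beside 18.1% higher and 22.8% lower among all measured exonic circles. Their median log2 ratio was 0.51, or 0.14 when scaled to mRNA reads, against 0.07 and -0.31 over all measured exonic circles. Elf2 and Rims2 held the most reads. Crebrf, a regulator of the unfolded protein response, had 26 junction reads with manganese and 6 without over 4 circles, at 2.33 [1.11 to 3.99], beside mRNA at 1.21. Ptk2, focal adhesion kinase, lay the other way, at 4 junction reads with manganese and 23 without over 5 circles and a log2 ratio of -2.08 [-4.21 to -0.67]. Zfp148 had 9 reads with manganese and 17 without, Pvt1 12 with and 12 without, Stau2 8 with and 13 without, Cdyl 11 with and 9 without, and Mpp6 14 with and 6 without. Tulp4 had 11 with manganese and 5 without, Fndc3b 5 with and 10 without, Uimc1 4 with and 8 without, Nrip1 9 with and 1 without, Slc8a1 5 with and 2 without, Mbnl1 3 with and 3 without, and Phf21a 5 with and 0 without. Homer1 had 2 with manganese and 0 without, and Ddx10 had 0 with and 2 without. For these last hosts the reads are too few to compare.

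Hosts were also grouped by function, and the reads of each group were summed. Of 79 chromatin and transcription regulators 31 gave 58 circles with 441 reads in the Mn-treated and 453 in the untreated library, a log2 ratio of 0.27 [0.08 to 0.46] for the sum, which was below 0 at -0.10 when scaled to mRNA reads. This group was led by Nsd2 (156 with manganese, 204 without), Ep400 (62 with, 58 without) and Rere (25 with, 36 without), and 3 of its 13 measured circles were 2-fold higher and 0 lower, where 18.1% of all measured exonic circles were higher and 22.8% lower. Of 69 ubiquitin ligases and deubiquitinases 24 gave 38 circles, of 109 reads with manganese and 181 without, at -0.43 [-0.78 to -0.07], or -0.80 when scaled to mRNA reads. Of its 9 measured circles 1 was 2-fold higher and 4 were lower, against the same 18.1% and 22.8%. Trim33, a ligase of SMAD signalling, had 5 with manganese and 21 without, Usp48 had 13 with and 22 without, and Usp3 had 13 with and 12 without. The median mRNA log2 ratio of those 24 hosts was 0.72, and that of the 31 chromatin hosts was 0.49. The sums of the ubiquitin group are small, and single circles such as that of Trim33 weigh in it.

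The other groups had intervals that held 0, and scaled to mRNA reads their sums lay between -0.53 and -0.11. Of 91 kinases and growth signalling genes 37 gave 67 circles, of 309 reads with manganese and 350 without, at 0.13 [-0.10 to 0.35], led by Acvr2a (58 with, 67 without) and Rasa2 (33 with, 28 without). Of 74 neurite, axon and synapse genes 18 gave 31 circles, of 105 reads with manganese and 145 without, at -0.16 [-0.54 to 0.21], although the median mRNA log2 ratio of those hosts was 0.62. Rims2 led this group, followed by Myo5a, a myosin motor (11 with manganese, 17 without), and Apbb2 (12 with, 11 without). Of 71 mitosis, centrosome and spindle genes 23 gave 32 circles, of 93 reads with manganese and 96 without, at 0.26 [-0.17 to 0.69]. Ckap5 led, followed by Cep192, a centrosome scaffold (12 with manganese, 8 without), and Racgap1, a regulator of cytokinesis (6 with, 11 without).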

How the data were processed

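Total RNA of N2a cells was read as circRNAs and mRNA genes, with 1 library per condition, and small RNA as miRNAs. The submitters' processing notes name fastp 0.18.0, Bowtie2, StringTie and the build mm9, and no source used here names the circRNA caller. As deposited by the authors, the tables hold whole junction read counts per circRNA, with RPM values, log2 fold changes, p-values and false discovery rates of their own. They also hold the authors' estimated counts, FPKM values and log2 fold changes per mRNA gene, and whole read counts per small RNA. Estimated counts were rounded to whole numbers here. The deposited lncRNA table was not used, and 0 columns lacked a library.

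Log2 ratios were computed from counts plus 0.5 over column totals for circRNAs with at least 10 junction reads, or genes with at least 20 mRNA reads, over both libraries, with exact conditional binomial (Clopper-Pearson) 95% intervals (Python 3.11.15, pandas 2.3.3, numpy 2.4.6, scipy 1.17.1, matplotlib 3.10.9). No test across samples was possible, and no p-value was computed. A fold against 0 reads is a bound against 3 reads per library, with the other library taken as exact. Hosts were matched by gene identifier, and sequences came from RefSeq. The ratio step was tested on simulated counts.

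Members and lists were chosen with earlier results of these data known. Named circles are the 12 with most reads, the 10 with intervals farthest above and below 0 (and 2 tied with the tenth above), and those with at least 10 reads in 1 library and 0 in the other. Named hosts are the 12 with most circles, the 8 most circular per FPKM, and the 8 highest and lowest relative to mRNA among hosts with 20 junction and 100 mRNA reads. Of each gene list the 2 highest, the 2 lowest and any gene past 1.5-fold are named, of each host group the 3 with most reads, and every well-known circRNA host. Ttc3, Ddx39b, Dhx9, Adar and the miRNAs were named after their values were seen. Some genes that these rules name are not reported here.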

Additional observations from a re-analysis of the deposited data

How the results depend on the processing

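The number of 2-fold differences depended most on the read minimum. With at least 5 junction reads, 273 exonic circles were higher in the Mn-treated library and 353 lower, and with at least 20 reads 21 and 19. Median-ratio scaling gave 71 and 106, an added count of 1 gave 73 and 94, and the log2 fold changes of the authors' deposited table gave 81 and 108. Without circles that had 0 reads in 1 library, an alternative chosen after seeing the data, 71 and 73 remained past 2-fold. Scaling to mRNA reads moved the median log2 ratio to -0.31, and the median relative to the host to -0.67, an alternative also chosen after seeing the data. Under the other alternatives that median relative to the host ran between -0.43 and -0.17. Of 50 named circles under 4 alternatives, 199 of 200 values stayed inside their counting interval, and 1 left it when scaled to mRNA reads. That scaling also took 5 of the 12 most read circles below 0, such as Unc79 at -0.21 and Mettl9 at -0.02, and 0 values changed sign under the other 3. For the 32 named circles with 0 reads in 1 library the counting interval has no outer end. Rps6ka2, at 5.35 here and 20.69 in the authors' deposited log2 fold changes, therefore counted as inside. For those 32 circles the count of 199 cannot show stability. With only circles of at least 10 reads, 53 hosts had several, and exonic circles held 77.3% of the junction reads of such circles in the Mn-treated and 77.9% in the untreated library.

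No paired analysis was possible because each condition has 1 library and the labels give no replicate numbers. For the same reason the spread between cultures is unknown, and a median of 5 reads per circle leaves most single circles beyond any comparison.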
